A study of Danio rerio with 6 samples.

Results

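The nuclear genes for subunits of the mitochondrial respiratory chain and ATP synthase were followed across 6 RNA sequencing libraries. They were chosen by symbol alone, as every gene whose name marks it as a subunit of complex I (nduf), II (sdh), III (uqcr), IV (cox4 to cox8) or V (atp5), with assembly factors left out. This gave 91 of 36191 genes, of which 37 were assigned to complex I, 5 to complex II, 8 to complex III, 24 to complex IV and 17 to complex V. The ndufa4 family, named for complex I but now placed in complex IV in mammals, was counted with complex IV. The gene atp5s, listed as dmac2l in the reference gene table, matched by name and was kept with complex V although its product is not a structural subunit.

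Complex I takes electrons from NADH and complex II takes them from succinate. Complex III passes them to cytochrome c and complex IV passes them to oxygen. Complexes I, III and IV pump protons, and complex V uses the proton gradient to make ATP. Most subunits are encoded in the nucleus and made in the cytosol, while a small set is encoded in mitochondrial DNA. Several complex IV subunits exist as paralogs that in mammals differ between heart and skeletal muscle, liver and other tissues. Liver and muscle are both rich in mitochondria.

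The submitters' labels describe all 6 libraries as liver from 3-month-old wild-type zebrafish of AB, a common laboratory strain. The control group and the group given graphene oxide nanoparticles, a sheet-like carbon material, had 3 libraries each, and the study's title asks about liver function and innate immune signalling. No dose or duration of exposure is given in the sources used here, and nothing says that replicates were separate animals, so the p-values below describe the spread among these samples, and that spread may be technical. The spread differed greatly with the libraries used: edgeR's common dispersion, the squared coefficient of variation beyond counting error, was 0.166 over all 6 libraries and 0.000716 within replicates 1 and 2.

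Total expected counts, the estimated reads per gene summed over a library, were 9739760 to 12998273. The hepatocyte marker gene fabp10a had 1.02 to 1.59 CPM in the replicate 1 and 2 libraries of either group but 117 and 119 CPM in control and graphene oxide replicate 3, where CPM is the count scaled to a library of 1000000 counts. A list of 42 skeletal muscle genes summed to 85700 to 118500 CPM, against 714 to 18250 CPM for 31 hepatocyte genes. The subunit levels therefore describe mixed tissue in which muscle transcripts exceeded hepatocyte transcripts, and in such bulk samples fewer cells of a type and less RNA per cell cannot be told apart. The replicate 3 libraries differed from the other 4 in both groups, so results are given with and without them.

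The subunit genes were expressed at very unequal levels within each complex. On the TPM scale, which corrects for transcript length, the mean over the 6 libraries ran from 14.7 TPM for ndufv3 to 1059 TPM for ndufa13 among the tested complex I genes. It ran from 77.1 TPM for sdhdb to 157 TPM for sdhb in complex II, and from 126 TPM for uqcrc2a to 793 TPM for uqcrb in complex III. It ran from 4.41 TPM for ndufa4l2a to 2086 TPM for cox7c in complex IV, and from 17.0 TPM for atp5s to 1537 TPM for atp5g3b in complex V. The median gene was lowest in complex II, at 128 TPM, and highest in complex V, at 653 TPM. The value of ndufa13 rests on 88 to 201 counts and an effective transcript length of 13 bases, so its TPM is uncertain. The effective length is the number of positions at which a fragment can start, and cox7c and ndufa2 were also short, at 78 and 99 bases.

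**Figure D1:**
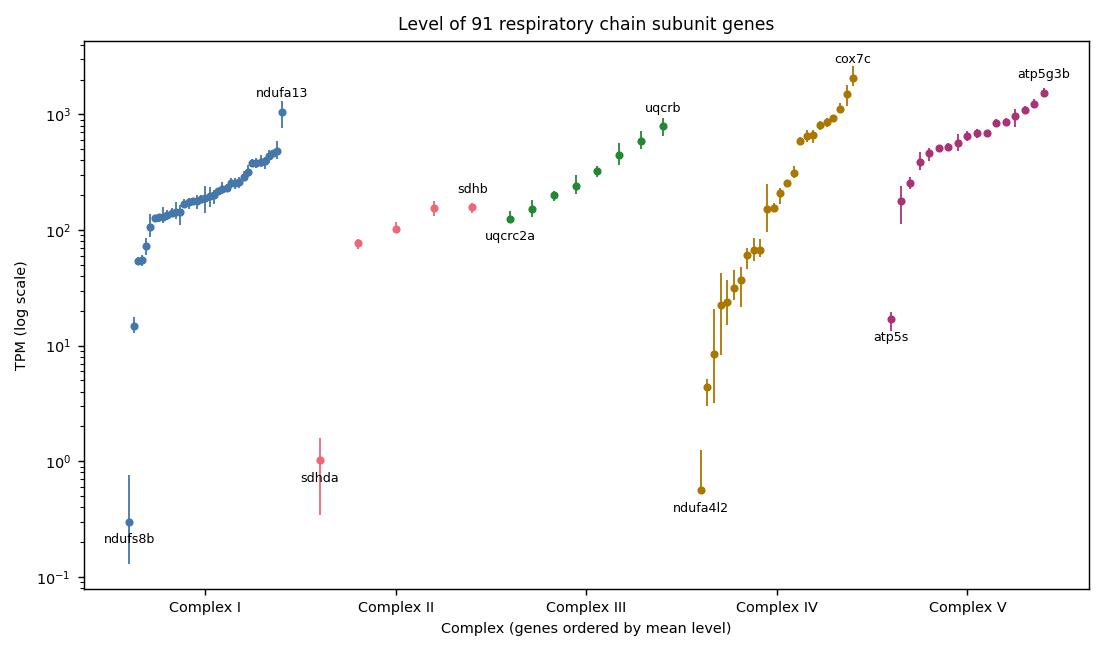
TPM (log scale) of the 91 subunit genes, ordered by mean level within each complex; points are means of the 6 libraries and lines run from the lowest to the highest library above 0. Complex IV spans the widest range of the tested genes, from ndufa4l2a at 4.41 TPM to cox7c at 2086 TPM, and ndufs8b, sdhda and ndufa4l2 lie at the bottom of their complexes.

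A filter on low values, a mean of at least 1 FPKM (fragments per transcript length and library size) over the 6 libraries, left 88 of the 91 genes for the tests. The 3 genes left out were second copies or low paralogs. The complex I copy ndufs8b had 1 to 5 counts in a library, the complex II copy sdhda had 2 to 10 counts and ndufa4l2, whose mammalian relative is induced by low oxygen, had 0 to 2 counts. The copies ndufs8a and sdhdb supplied nearly all transcripts of their pairs, at 99.7% ± 0.257 and 98.6% ± 0.123 of the summed TPM in control (SD, n = 3).

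Over all 6 libraries, which compares graphene oxide with control as the study was set up, most subunits lay lower with graphene oxide but none passed the test. The 91 genes together took 14570, 14520 and 13630 CPM in control replicates 1, 2 and 3 and 12590, 12500 and 14120 CPM with graphene oxide. The replicate 1 and 2 libraries were lower with graphene oxide and the replicate 3 library was higher, so the groups overlapped. The log2 fold change was negative for 83 of 88 tested genes, with a median of -0.25, where the median over all 19313 genes tested was -0.001. The quasi-likelihood test of edgeR called 0 subunits and 0% of all genes at an adjusted p under 0.05. At an unadjusted p under 0.05 it had 13 subunits, all lower, against 2.27% of all genes. With the replicate number added to the edgeR fit as a block, 40 subunits and 2793 of 19313 genes had an unadjusted p under 0.05. After adjustment that fit also called 0 genes. DESeq2 and limma also called 0 subunits. Groups did not overlap for 27 of the 88 subunits, all of them lower, against 4.05% of all genes in that direction and 3.66% in the other. Of the 88, 42 were lower in all 3 same-numbered pairs, against 19.7% of all genes. By pair, 85, 86 and 42 subunits were lower in pairs 1, 2 and 3, against 9861, 9785 and 9773 of all 19313 genes. The excess over all genes thus came from pairs 1 and 2, and pair 3 had none.

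The gene with the smallest unadjusted p in complex IV was cox4i2, whose mammalian form is known from lung and from low oxygen. It was at 38.8, 37.7 and 42.3 CPM in the control replicates and at 28.1, 32.2 and 29.7 CPM with graphene oxide. All graphene oxide libraries were below all controls, the replicate 3 pair included, with a log2 fold change of -0.40 ± 0.12 (SE). The membrane-arm gene ndufa1 of complex I was at 74.6, 65.2 and 63.0 CPM against 51.0, 46.9 and 53.7 CPM, likewise without overlap. The complex III gene uqcrb was at 170, 168 and 130 CPM against 104, 107 and 121 CPM, with a log2 fold change of -0.50 ± 0.15 (SE). None of these 3 genes passed after adjustment, where edgeR's adjusted p was 1 (rounded) for each.

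With the replicate 3 libraries left out, 77 of 88 subunit genes fell with graphene oxide, 0 rose and 11 did not pass (edgeR over replicates 1 and 2, adjusted p under 0.05 over 19313 genes). These calls rest on the small spread between replicates 1 and 2 (dispersion 0.000716). That spread may be technical, so the calls describe these libraries only. In the same fit 12% of all genes were called lower and 12.9% higher, and the median of all genes was -0.002 against -0.34 for the subunits. The falls were small, and 78 of the 88 log2 fold changes were under 1.5-fold. In complex I 32 of 36 tested genes fell, in complex II 3 of 4, in complex III 7 of 8, in complex IV 19 of 23 and in complex V 16 of 17. The medians were -0.34, -0.22, -0.28, -0.43 and -0.33. Of these 77 falls, 60 also passed in DESeq2 on the same counts, where 933 of 19313 genes were called lower and 1114 higher. In limma, where both the test and the scale differ, 17 passed on log2(FPKM + 1), 4 on log2(FPKM + 0.1) and 10 on log2(TPM + 1). Over all genes these limma settings called 343, 179 and 338 lower and 798, 450 and 3093 higher. On TPM the median of all genes itself moved to 0.18 and that of the subunits to -0.13, and 64 of the 88 subunits were negative. Directions below are therefore relative to the counts of all genes. Scaling to total counts in place of TMM, edgeR's default factors that hold the typical gene level, moved the median of all genes to 0.05. The median of the subunits moved to -0.28, with 64 subunits lower and 0 higher, against 1654 and 3295 of all 19313 genes. Under that scaling atp5a1, atp5b, atp5g3a, cox5ab, ndufa4l2a, ndufs7, ndufv1, sdha, uqcrc2a and uqcrc2b, among the genes named below as falling, did not pass. Of the named genes, atp5g3a, ndufa4l2a, ndufs7, ndufv1, uqcrc2a and uqcrc2b lost the call without control replicate 1, and cox5ab, cox5b1, cox7a2b, ndufa4l2a and sdha without control replicate 2. The call was lost for atp5a1, atp5g3a, cox4i2, ndufa4l2a, sdha, uqcrc2a and uqcrc2b without graphene oxide replicate 1, and for atp5g3a, cox5ab, cox5b1, cox5b2, cox6a2, ndufa4l2a, ndufs7, ndufv1 and uqcrc2b without graphene oxide replicate 2. In each of these fits 1 group has a single library, which is assumed to vary like the pair of the other group. The log2 fold changes of these 14 genes stayed negative there, between -0.92 and -0.07, and moved by at most 0.24.

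**Figure D2:**
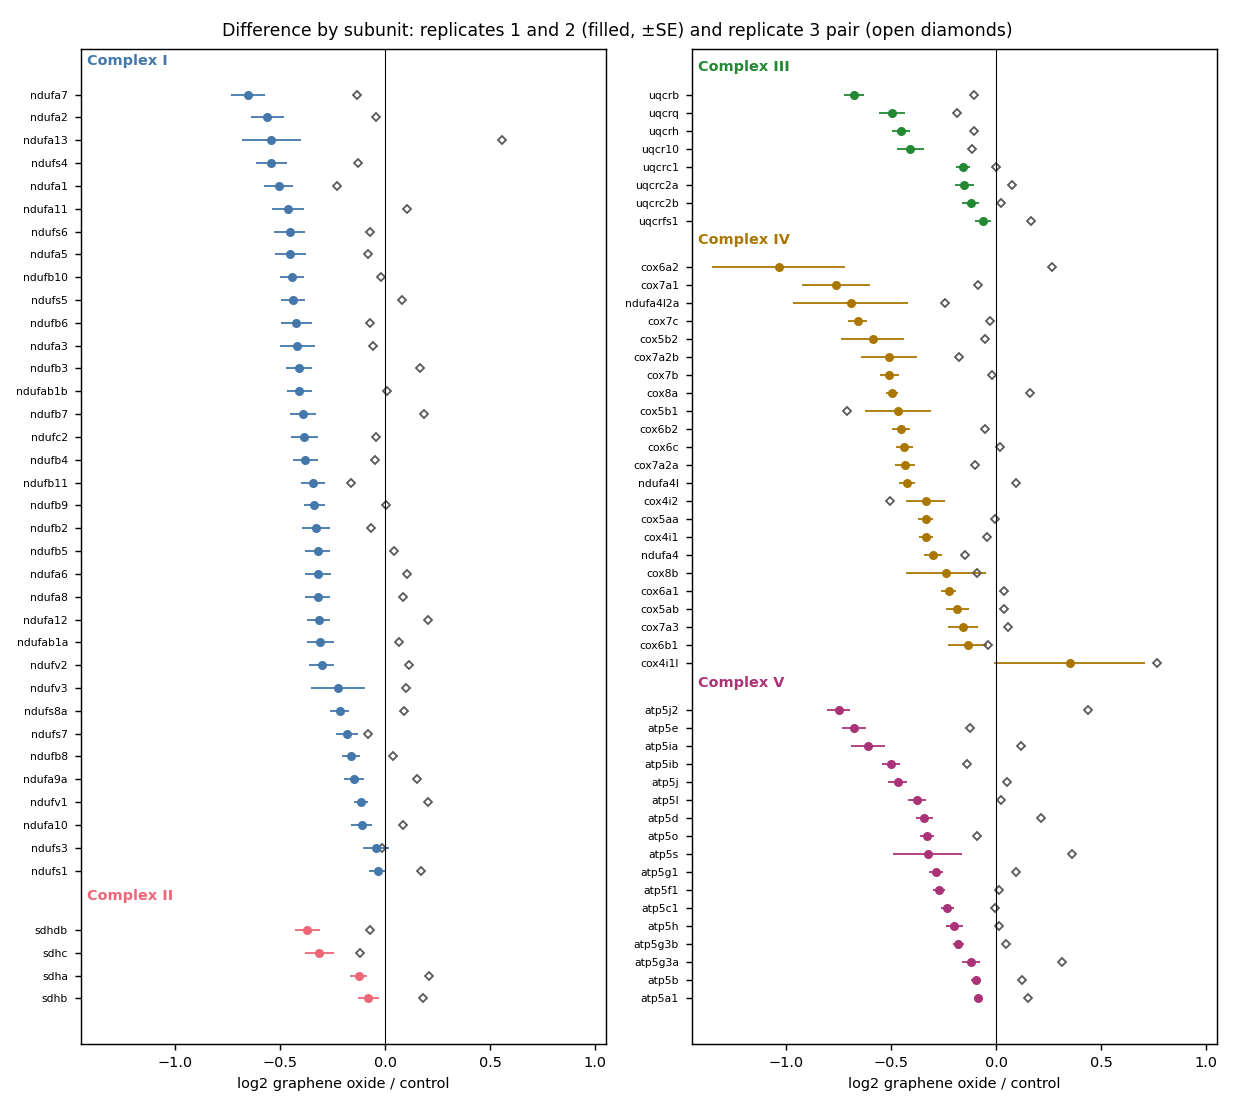
Log2 ratio of graphene oxide to control for the tested subunits by complex, 1 of the 88 not drawn; filled points are the edgeR estimates from replicates 1 and 2 with their SE and open diamonds the difference within the replicate 3 pair, which has no replicate. All filled points except cox4i1l lie below 0, while the diamonds scatter around 0, with a median of 0.01 over all 88.

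The NADH-oxidising and quinone-binding core of complex I had a median log2 fold change of -0.15, with 5 of 7 tested genes falling. The iron-sulfur subunit gene ndufs1, which encodes the largest protein of the complex, stood at 202 and 192 CPM in the control libraries and 187 and 196 CPM with graphene oxide, so the groups overlapped and the test was not passed. The gene ndufs3 did not pass either, at 72.4 and 72.2 against 69.7 and 70.6 CPM, although the groups did not overlap within replicates 1 and 2. The flavin-binding gene ndufv1 fell from 324 and 316 to 296 and 294 CPM, with a log2 fold change of -0.11 ± 0.03 (SE). On the log2 scale the quinone-site gene ndufs7 fell by 0.18, the iron-sulfur gene ndufs8a by 0.21 and ndufv2 by 0.30. On the TPM scale ndufs7, ndufs8a and ndufv1 had positive differences of 0.027, 0.002 and 0.10, below the shift of all genes on that scale.

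The accessory subunits of complex I fell further. Of 29 tested accessory genes 27 fell, with a median of -0.39, below the median of the core; the difference between both classes was not tested. The gene ndufa7 went from 56.7 and 52.9 CPM to 37.1 and 32.7 CPM, with a log2 fold change of -0.65 ± 0.08 (SE). The gene ndufa2 went from 54.5 and 55.5 to 38.6 and 36.2 CPM, and ndufs4, whose loss in mice gives a model of mitochondrial encephalopathy, from 59.05 and 61.2 to 42.1 and 40.8 CPM. Within replicates 1 and 2 the groups did not overlap for any of these 3. Over all 6 libraries ndufa2 did overlap, with control replicate 3 at 37.2 CPM, below graphene oxide replicate 1. The genes ndufa10 and ndufv3 did not pass, at log2 fold changes of -0.11 and -0.22. The pair of acyl carrier protein genes, which also serve mitochondrial fatty acid synthesis, moved together, ndufab1a by -0.31 and ndufab1b by -0.41.

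Complex II has no mitochondrially encoded subunit and also works in the citric acid cycle. Its flavoprotein gene sdha was at 205 and 212 CPM in control and at 189 and 194 CPM with graphene oxide, a log2 fold change of -0.13 ± 0.04 (SE). The iron-sulfur gene sdhb was at 123 and 136 against 126 and 121 CPM, with overlap, and did not pass. The log2 falls of the membrane anchor genes sdhc and sdhdb were larger, at -0.31 and -0.37. On TPM sdha was not lower, at 93.7 and 95.9 in control and 100.1 and 101.9 with graphene oxide. The summed level of complex II was 478.7 and 470.5 TPM against 474.5 and 477.2 TPM, with overlap.

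In complex III the gene uqcrb fell by 0.68 ± 0.05 (SE) on the log2 scale, uqcrq by 0.49 (94.1 and 87.7 to 64.8 and 63.8 CPM), uqcrh, the hinge protein gene, by 0.45 and uqcr10 by 0.41. The genes uqcrc1, uqcrc2a and uqcrc2b, for the large proteins called core proteins that carry no redox centre, fell by 0.16, 0.15 and 0.12. The Rieske iron-sulfur gene uqcrfs1, which carries out electron transfer, was at 210.5 and 210 CPM in control and at 198 and 204 CPM with graphene oxide and did not pass. On the TPM scale uqcrc2a and uqcrc2b had differences of 0.059 and 0.09 in the other direction. On that scale uqcrc1 was not lower either, at 215 and 203 TPM in control and 216 and 219 TPM with graphene oxide.

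In complex V the catalytic alpha and beta subunit genes were the most abundant by counts and moved least. The beta subunit gene atp5b was at 1581 and 1622 CPM in control and 1510 and 1486 CPM with graphene oxide, a log2 fold change of -0.10 ± 0.02 (SE), and the alpha subunit gene atp5a1 at 1195 and 1215 against 1124 and 1147 CPM. Both fell by the count test, and on TPM their differences were 0.12 and 0.13. The f subunit gene atp5j2 fell from 132 and 128 to 74.6 and 79.1 CPM, the epsilon gene atp5e from 119 and 115 to 74.7 and 71.7 CPM, and the e subunit gene atp5ia from 55.8 and 52.9 to 36.5 and 34.7 CPM. Their log2 fold changes were -0.75, -0.68 and -0.61. The 3 genes for the c subunit of the proton-driven ring, atp5g1, atp5g3a and atp5g3b, fell by 0.29, 0.12 and 0.18. On TPM atp5g1 was lower, at 861 and 849.7 in control and 822.2 and 796.8 with graphene oxide. On that scale atp5g3a was higher, at 256.4 and 243 against 267.7 and 263.4, and atp5g3b overlapped, at 1426 and 1493 against 1499 and 1485. The log2 fold change of atp5s was -0.33 and did not pass.

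Complex IV held the largest falls and the only positive value. The gene with the highest TPM, cox7c, whose effective length is 78 bases and which is not the highest by counts, fell from 194 and 197 to 123 and 125 CPM, with a log2 fold change of -0.66 ± 0.04 (SE). The gene cox8a had the smallest adjusted p of all subunits in replicates 1 and 2, 1.36e-47 in edgeR, falling from 546 and 542 to 390 and 383 CPM. In replicate 3 the order of cox8a was reversed, at 327 CPM in control and 366 CPM with graphene oxide. That control library lay below all graphene oxide libraries. The highest value was for cox4i1l, at 1.59 and 2.14 CPM in control and 2.21 and 2.59 CPM with graphene oxide, which rests on 15 to 33 counts and did not pass. The genes cox6b1, cox7a3 and cox8b did not pass either, at -0.14, -0.16 and -0.24.

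Paralogs of the same complex IV subunit were compared as shares of their summed TPM. The ubiquitous form dominated in each of 3 families whose other member is typical of heart and skeletal muscle in mammals. The share of cox6a1 over cox6a2 was 95.5% to 99.1%, and that of cox8a over cox8b 96.4% to 98.6%. Within the cox7a family cox7a2a held 69.9% to 74.9% and cox7a1, muscle-type in mammals, 1.82% to 3.81%. The gene cox4i1 held 90.8% to 92.4% of its family. These levels came from libraries in which muscle transcripts were abundant.

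Other pairs were more even. The gene cox5aa held 67.2% to 71.4% over cox5ab, and cox5b2 held 56.0% to 74.98% over cox5b1. In the ndufa4 family, ndufa4l (ndufa4a in the reference gene table) held 76.9% to 82.6% and ndufa4 (ndufa4b) 16.9% to 22.5%. The c subunit genes split into 56.1% to 59.8% for atp5g3b, 31.3% to 33.9% for atp5g1 and 8.42% to 10.3% for atp5g3a. The 2 core protein genes uqcrc2a and uqcrc2b were near equal, with uqcrc2b at 53.2% to 56.5%.

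Within replicates 1 and 2 cox6a2 and cox7a1, muscle-type in mammals, had larger log2 falls than the major forms of their families. The gene cox8b, also muscle-type in mammals, did not, and no difference between paralogs was tested. The gene cox6a2 went from 3.91 and 3.80 to 2.21 and 1.57 CPM, with a log2 fold change of -1.04 ± 0.32 (SE) from 20 to 48 counts in a library, against -0.23 for cox6a1. The gene cox7a1 went from 14.8 and 11.8 to 7.55 and 7.94 CPM, with a log2 fold change of -0.76 ± 0.16 (SE), against -0.43 for cox7a2a. In the cox8 pair cox8b was at -0.24 without passing, against -0.49 for cox8a. The gene cox5ab fell by 0.18 against 0.34 for cox5aa. On TPM cox5ab was not lower, at 262.8 and 265.7 in control and 271.5 and 266.3 with graphene oxide. The gene cox6b2, whose mammalian form is known from testis, fell by 0.45 from 202 and 196 to 144 and 146 CPM.

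**Figure D3:**
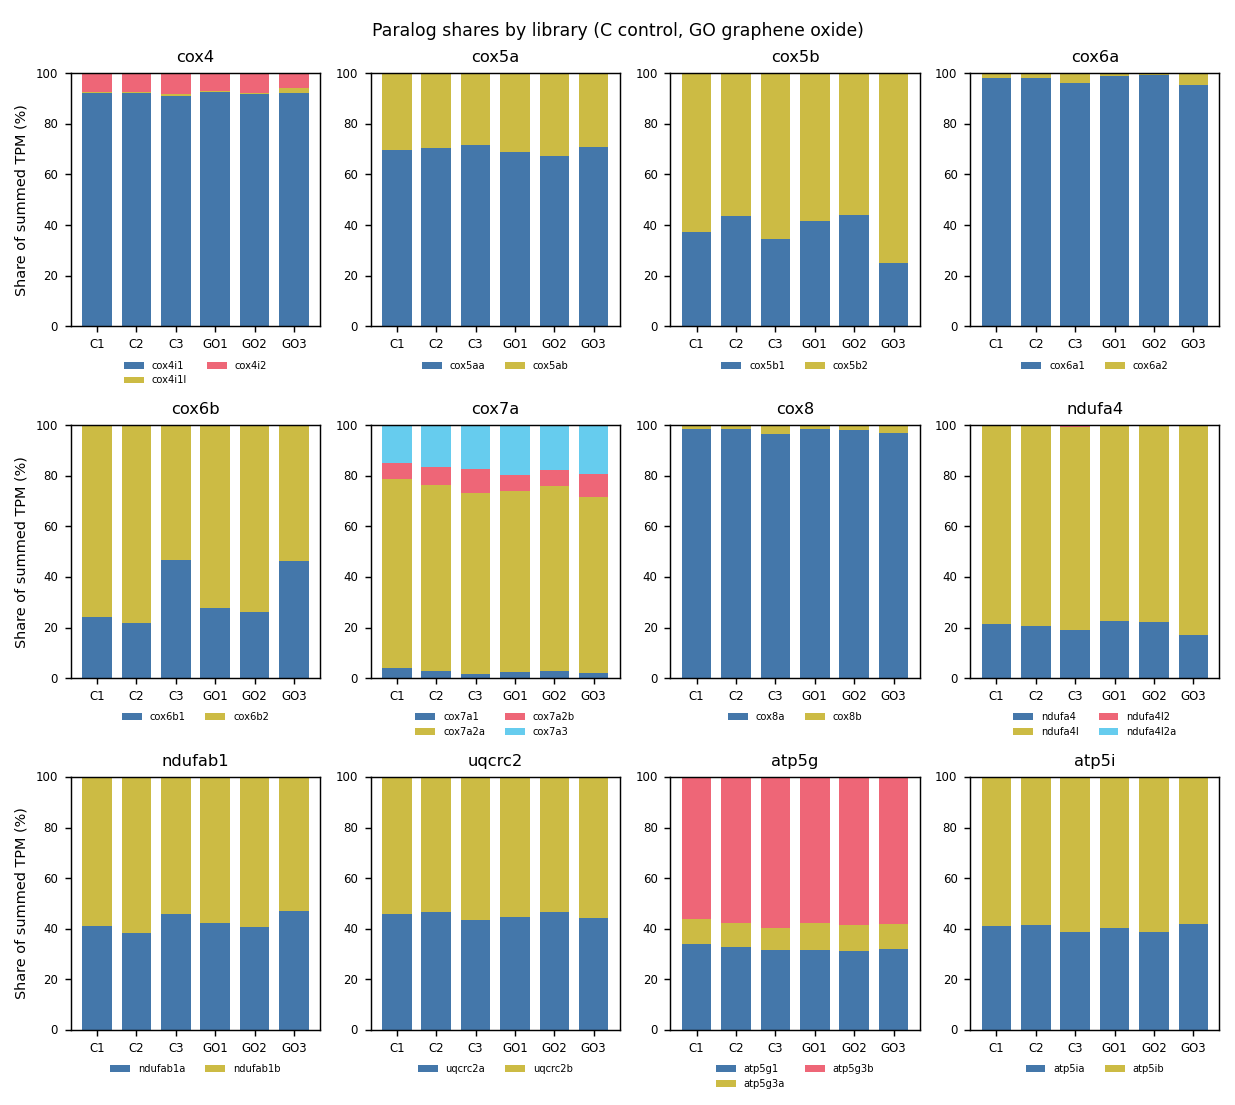
Share (%) of each paralog in the summed TPM of its family, by library, for 12 subunit families; C1 to C3 are the control and GO1 to GO3 the graphene oxide replicates. The cox6b1 share is near 46.5% in both replicate 3 libraries and 21.8% to 27.8% in the others, and the cox5b2 share runs from 56.0% to 74.98%.

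The paralog shares did not separate the groups over all 6 libraries in most families. An exact two-sided permutation test, which cannot go below 0.1 with 3 against 3, was run over 39 values (5 complexes and 34 shares). It reached 0.1 for the summed TPM of complex IV, for the share of cox7a3 and for the share of ndufa4l2a, each 0.836 after adjustment over the 39. The gene cox7a3, listed as cox7a2l in the reference table and known in mammals for joining complexes III and IV, held 14.8%, 16.5% and 17.2% of its family in control and 19.8%, 17.7% and 19.2% with graphene oxide. The summed level of complex IV was 11720, 11830 and 10230 TPM against 9860, 9977 and 10130 TPM. All 3 graphene oxide values lay below all controls, with the replicate 3 pair nearly equal. Of these sums cox7c, at 78 bases, supplied 2469, 2647 and 1946 TPM in control and 1772, 1899 and 1780 TPM with graphene oxide. In the replicate 3 pair cox7c fell by more than the sum did. Without cox7c the sum of that pair was higher with graphene oxide, and the groups overlapped.

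The replicate 3 pair, 1 library a group, had differences near 0. Its log2 differences between graphene oxide and control had a median of 0.01 over the 88 subunits, against -0.33 and -0.36 in pairs 1 and 2, and 42 of 88 were negative, against 85 and 86. In edgeR's test of the difference between the effects, the replicate 3 arm adds no spread of its own and is assumed to vary like replicates 1 and 2 (dispersion 0.000716), so its calls hold only under that assumption. On those terms 62 of 88 subunits were called as lower in replicates 1 and 2 and 0 as higher, against 6.63% and 7.59% of all genes. By complex these were 25 of 36, 3 of 4, 7 of 8, 11 of 23 and 16 of 17. DESeq2 called 21 subunits, against 373 lower and 388 higher of all 19313 genes. No subunit was called by limma. Over all 19313 genes limma called 30 lower and 89 higher on log2(FPKM + 1). On log2(FPKM + 0.1) it called 1 lower and 0 higher, and on log2(TPM + 1) 26 lower and 113 higher. The gene atp5j2 was at 56.8 CPM in control replicate 3 and 77.0 CPM with graphene oxide, the reverse of its fall in replicates 1 and 2. Control replicate 3 was its lowest library and the 3 graphene oxide libraries lay close together.

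The genes cox4i2 and cox5b1 were lower with graphene oxide in replicate 3 as well. For cox5b1 the control replicates were at 11.9, 13.5 and 9.22 CPM and the graphene oxide replicates at 9.67, 8.88 and 5.56 CPM, where the lowest control lay below the highest graphene oxide library. Its difference within the replicate 3 pair was -0.71 against -0.47 in replicates 1 and 2, and for cox4i2 the values were -0.51 and -0.34. The test of the difference did not pass for either (edgeR adjusted p = 0.669 and 0.542).

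Some subunits also differed in level between replicate 3 and the other libraries of the same group, described here without a test. In TPM, cox6b1 was at 249 and 243 in the replicate 3 libraries and at 95.8 to 114 in the others. The gene cox6a2 was at 35.9 and 42.8 TPM against 8.33 to 17.8 TPM, cox4i1l at 11.9 and 20.6 against 3.17 to 6.0 TPM and cox8b at 44.7 and 41.9 against 24.8 to 27.0 TPM. In the other direction cox7a1 was at 16.1 and 15.1 TPM against 21.8 to 37.0 TPM. These 5, all complex IV paralogs, were chosen after their values were seen. Over the 88 tested subunits, both replicate 3 values lay above the other 4 libraries for 22 and below them for 18, or 25% and 20.5%, against 31.1% and 27.9% of all genes tested. Beside them, the 42 muscle genes together took 107700 to 118500 CPM in replicates 1 and 2 but 85700 and 88220 CPM in the replicate 3 libraries. The paralogs cox6a2 and cox8b were thus higher, and cox7a1 lower, in the libraries with the lower total of this list. Their muscle-type names come from mammals. The list was not uniform: 27 of its 42 genes had a lower mean log2(TPM + 1) in replicate 3 than in the other libraries. The slow myosin gene smyhc1 was higher, at 231 and 261 TPM in replicate 3 against 126 to 160 TPM. Of 9 tested heart genes 1 was lower in replicate 3, and the median log2 difference was 1.49. The replicate 3 totals of the hepatocyte, exocrine pancreas and intestine lists were 16790 and 18250, 3212 and 3362, and 2238 and 2620 CPM. The other libraries had 714 to 1646, 9.76 to 13.5 and 47.4 to 150 CPM of these 3 lists. The part of any of these lists in the paralog levels was not tested.

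The size of the fall went with transcript length. Across the 88 subunits the Spearman correlation of effective length with the log2 fold change in replicates 1 and 2 was 0.66, and 0.18 across all genes tested, given as a description over genes that share the same 4 libraries. The 45 subunits of at most 405 bases, the median length, had a median of -0.44 and 42 of them fell. The 43 longer ones had a median of -0.27 and 35 fell. Short transcripts as a whole lay lower, with a median of -0.28 and 34.4% called lower over the 665 tested genes of at most 405 bases, the subunits included, against 0.001 and 11.2% over the 18648 longer genes. Among other genes with a mean of at least 30 TPM, 59% of the 295 short ones were called lower, with a median of -0.37, and 31.2% of the 2728 longer ones, with a median of -0.06. The subunits had 93.3% and 81.4% in the same length classes. Over all complexes the core subunits carry the catalytic or redox sites, anchor complex II or form the rotor of complex V. Their median length was 879 bases, against 349 bases for the accessory subunits. The classes overlapped in length, with the core gene atp5e at 108 bases and the accessory gene uqcrc1 at 1391 bases. The separate parts of class and length were not tested. Among the transcripts of over 405 bases, cox7a1 at 408 bases and atp5j2 at 562 bases had log2 fold changes of -0.76 and -0.75. The gene ndufa4l2a at 957 bases was at -0.69, from 30.65 to 58.1 counts, and ndufa1 at 900 bases was at -0.51.

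**Figure D4:**
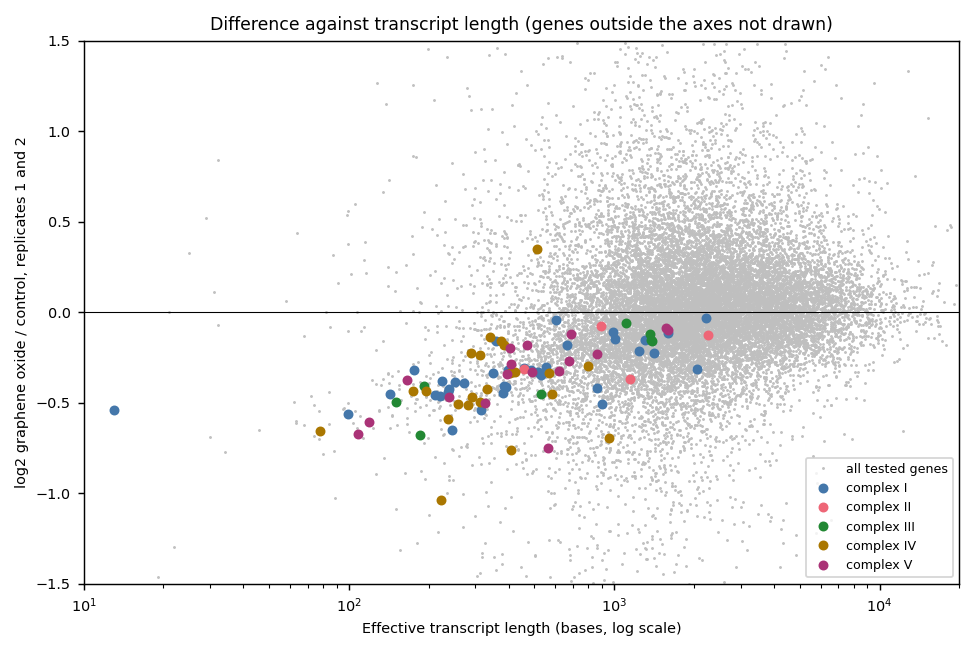
Log2 ratio of graphene oxide to control in replicates 1 and 2 against effective transcript length (bases, log scale) for all tested genes (grey) and the 88 subunits (coloured by complex). Subunits of at most 405 bases have a median of -0.44 and longer ones of -0.27, and the short grey genes also lie below 0.

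The libraries differed somewhat in fragment size, as far as effective lengths show it. Over 925 well-covered genes the median effective length differed from that of control replicate 1 by -6.4 and -11.2 bases in control replicates 2 and 3, and by 2.6, -3.4 and -2.6 bases in graphene oxide replicates 1, 2 and 3. The 2 groups overlapped in this measure, but within each same-numbered pair the graphene oxide library had the longer effective length, by 2.6, 3 and 8.6 bases. Beside the shortest subunits, ndufa13 at 13 bases and cox7c at 78 bases, such differences are not small. In the replicate 3 pair cox7c went from 125 to 123 CPM but from 1946 to 1780 TPM. The sum of FPKM, which falls when longer transcripts take a larger share, was 944518 and 958237 in control replicates 1 and 2 and 845027 and 852893 with graphene oxide. In the replicate 3 pair it was 925951 and 899809. The part of transcript length in the fall was not tested.

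The other genes of the pathway are set against the 12% of all genes called lower and 12.9% called higher in the same fit. Of 17 tested genes for electron carriers and related proteins, 6 fell in replicates 1 and 2 and 0 rose, with a median of -0.16. The cytochrome c gene cycsb, the mobile carrier between complexes III and IV, fell from 411 and 411 to 298 and 298 CPM. The gene cyc1, for a haem-bearing subunit of complex III, fell by 0.25 on the log2 scale. The ATP synthase inhibitor genes atpif1a and atpif1b fell by 0.45 and 0.47. Of 51 assembly factor genes 17 fell and 2 rose (median -0.32). The copper chaperone gene cox17 and the complex III factor genes uqcc3 and lyrm7 fell by 0.67, 0.63 and 0.79, and coa6 by 0.58. The 2 that rose, named after their values were seen, were higd1a and bcs1l, by 0.46 and 0.50.

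Of 22 citric acid cycle and pyruvate genes 9 fell and 3 rose (median -0.13). The pyruvate carboxylase gene pcxb fell from 10.4 and 12.2 to 3.31 and 3.22 CPM, and was at 194 and 235 CPM in replicate 3. The genes suclg1, pdha1a and mdh2 had log2 falls of -0.26, -0.21 and -0.14. The 3 that rose, named after their values were seen, were ogdhb, dlat and pcxa. Of 22 genes that regulate mitochondrial biogenesis and transcription 1 rose, the coactivator gene pprc1, from 13.3 and 12.1 to 19.7 and 16.7 CPM, and 1 fell, the mitochondrial DNA-binding protein gene ssbp1, from 14.8 and 16.4 to 12.4 and 11.2 CPM. The mitochondrial transcription factor gene tfam and the gene esrrga, next by smallest p, were at log2 fold changes of -0.21 and 0.09 and did not pass. The transcription factor gene gabpa, named outside this order, was at -0.14 and did not pass either. The median of these 22 was -0.03, and 1 of 22 in either direction is a smaller share than that of all genes called.

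Cell type markers moved in the same libraries, where the fit of replicates 1 and 2 called 12% of all genes lower and 12.9% higher. In replicates 1 and 2, 31 of 42 tested muscle genes fell and 6 rose (median -0.15), and the list total was 118000 and 118500 CPM in control against 107700 and 107800 CPM with graphene oxide. Of 26 hepatocyte genes 20 fell and 0 rose, with totals of 1646 and 1626 against 733 and 714 CPM. Of 14 tested intestine genes 8 fell and 0 rose, with totals of 150 and 146 against 49.6 and 47.4 CPM. Of 29 neural genes 19 fell and 2 rose, with totals of 9134 and 9181 against 8625 and 8738 CPM. Of 23 photoreceptor genes 18 fell and 0 rose, with totals of 8957 and 8904 against 7310 and 7248 CPM. Of 19 epidermis genes 10 fell and 9 rose, with totals of 26690 and 26430 against 24260 and 24360 CPM. Of 9 tested heart genes 6 rose and 0 fell, with totals of 406 and 400.3 against 563 and 546 CPM. The part of these cell types in the fall of the subunits was not tested.

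Several subunit genes stood on more than 1 row of the deposited tables under a single gene ID, and the rows were summed. This held for 17 of the 91 genes, 3 of them on 3 rows. For 10 genes the rows with counts took equal shares in every library, within 1 percentage point, and for 7 they did not. The ATP synthase gene atp5ib had 98.8% to 99.6% of its counts on its first row in replicates 1 and 2 of either group, but 24.7% in control replicate 3 and 23.3% in graphene oxide replicate 3. Row 3 held 38.2% in control replicate 3, 2.94% in graphene oxide replicate 3 and 0% elsewhere. The complex III gene uqcrq had all but 0.021% of its counts on its first row in control replicate 3 and under 1% there in control replicates 1 and 2 and graphene oxide replicate 1. The share was 50% and 71.5% in graphene oxide replicates 2 and 3. For uqcrc1 the first row took 66.7% and 76.5% in the replicate 3 libraries and 43.6% to 47.4% in the others. For ndufs7 it took 57.4% and 40.4% against 17.3% to 27.0%. A single row of these genes would therefore give another picture than the sum.

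**Figure D5:**
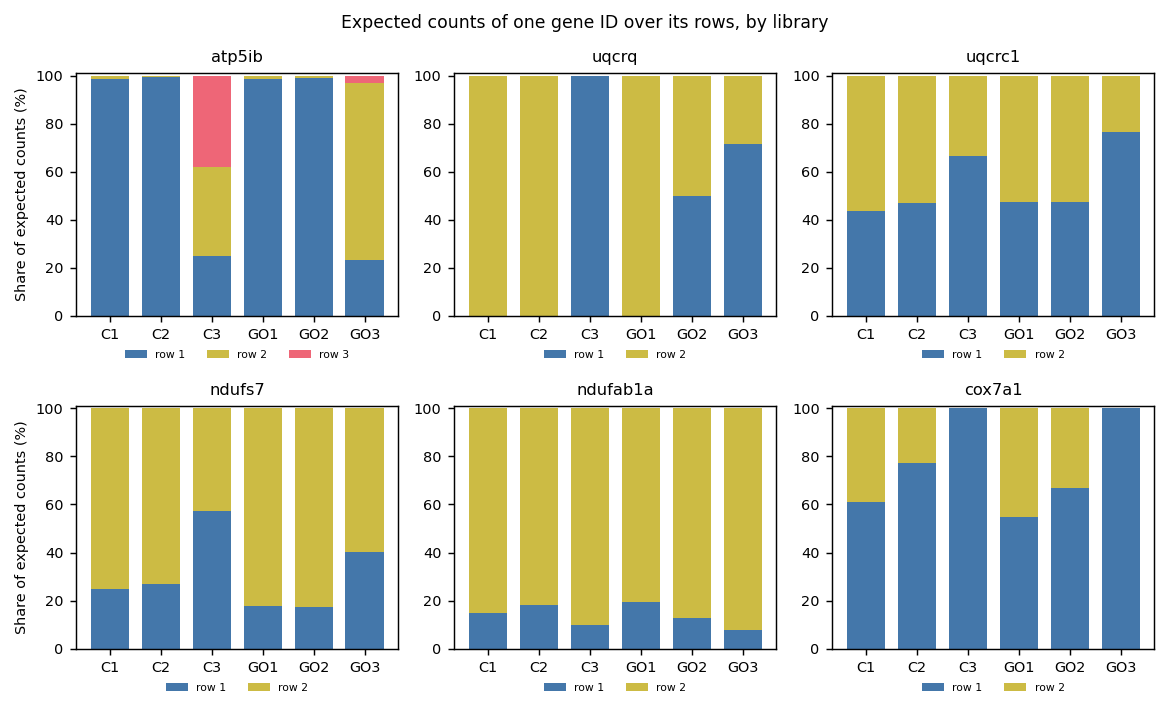
Share (%) of the expected counts of 1 gene ID on each of its rows, by library, for 6 subunit genes on 2 or 3 rows; C1 to C3 are the control and GO1 to GO3 the graphene oxide replicates. The first row of atp5ib holds 98.8% to 99.6% in replicates 1 and 2 and 23.3% to 24.7% in replicate 3.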

How the data were processed

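Libraries labelled as zebrafish liver, 3 control and 3 graphene oxide, were grouped by title. Per the submitters' processing notes, Bowtie2 2.3.2 and GRCz11 were used. The counting program and strand setting are not stated in those notes. The deposited expected counts are estimated counts that need not be whole, so close paralogs and overlapping genes are uncertain. The deposited TPM and FPKM values are normalized for length and depth, per the file headers. All rows of a gene ID were summed (43106 rows, 36191 IDs). Of the 91 subunit IDs, 90 were found in a gene table of assembly GRCz12tu, used for names only.

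Expected counts, rounded to whole numbers, were tested with edgeR 4.0.16 (quasi-likelihood, TMM, R 4.3.3) over the 19313 genes with a mean FPKM of at least 1. The fits had the group alone over 6 libraries, the group alone over replicates 1 and 2, and the group by replicate 3 interaction. P-values are two-sided with Benjamini-Hochberg adjustment and a threshold of 0.05. CPM of single genes are TMM-scaled, list totals are unscaled, and pair differences used a prior count of 2. limma 3.58.1 and DESeq2 1.42.0 were alternatives, and the fits were tested on simulated data.

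Members and lists were chosen with earlier results of these data known. Named genes were the paralogs, the catalytic core, and in each complex the highest level and the 2 lowest and 2 highest fold changes of replicates 1 and 2, with up to 4 genes a pathway list by smallest p; others were chosen after their values were seen. The values of 1 catalytic core gene of the rule are not reported here. Deviations from group means correlated at 0.73, 0.75 and 0.87 between same-numbered libraries. Replicate 3 stood apart in both groups, so these values cannot show whether replicate 1 pairs with replicate 1 or with replicate 2. Differently numbered libraries were not compared. Pairs were formed by number only, and the labels state no pairing. Replicates 1 and 2 differed by more than sampling noise (chi-square over degrees of freedom 1.62 and 1.56). A count of 0 allows up to 0.231 to 0.308 CPM, from 3 counts, for counting error only. Of 26 listed names for mitochondrially encoded subunits 0 were found among the gene names, so these subunits could not be analysed here.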

Additional observations from a re-analysis of the deposited data

Results flagged for a closer look

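By edgeR's test of the difference, 62 of the 88 tested subunits had a lower effect of graphene oxide in replicates 1 and 2 than in replicate 3 and 0 a higher one, against 6.63% and 7.59% of all genes tested. Replicate 3 is 1 library a group with its spread taken from replicates 1 and 2, so its own variation is not in this test. DESeq2 called 21 subunits, against 373 lower and 388 higher of all 19313 genes. The limma count was 0 subunits, with at most 30 of all genes lower and at most 113 higher in any limma setting. Groups of 3 libraries are too small for a test of single outlying libraries.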

How the results depend on the processing

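Over all 6 libraries 0 subunits passed under every alternative run, the replicate block included, with medians of -0.31 to -0.20 when each library was left out. In replicates 1 and 2 the count of 77 lower was 66 to 72, with medians of -0.36 to -0.33, when each library was left out, and 77 with the replicate block, which changed no call count by over 1.5 times. limma gave 17 on log2(FPKM + 1), 4 on log2(FPKM + 0.1) and 10 on log2(TPM + 1), with medians of -0.29, -0.30 and -0.13, and scaling to total counts gave a median of -0.28. The difference of effects gave 21 in DESeq2 and 0 in limma on either FPKM setting or TPM (median -0.13), against 45 to 60 when libraries of replicates 1 and 2 were left out. On log2(TPM + 1) the sign turned for atp5a1 (0.13), atp5b (0.12), atp5g3a (0.089), atp5g3b (0.032), cox5ab (0.025), ndufs7 (0.027), ndufs8a (0.002), ndufv1 (0.10), sdha (0.091), uqcrc2a (0.059) and uqcrc2b (0.09), where the median of all genes was 0.18. Summed log2 levels of complexes I to V, which were -0.10, 0.03, -0.19, -0.17 and -0.06 on TPM, were -0.23, -0.10, -0.31, -0.29 and -0.18 on FPKM. Those of complexes I to V on TPM were -0.18, 0.004, -0.24, -0.25 and -0.11 in replicates 1 and 2. Leaving out each library gave -0.17 to -0.07, -0.03 to 0.06, -0.27 to -0.14, -0.24 to -0.13 and -0.09 to -0.04. The cause of these changes was not tested, apart from the shift of all genes on TPM. The TPM setting, the left-out libraries in the difference of effects and the settings for the summed levels were chosen after seeing the data.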
